A study of Homo sapiens with 6 samples.

Results

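The AP-1 family genes described here are the JUN genes JUN, JUNB and JUND, the FOS genes FOS, FOSB, FOSL1 and FOSL2, and the related genes ATF3, BATF and BATF3. The family was defined by gene symbol: 10 of 10 had a probe set annotated to that symbol alone, each had exactly 1, and they stood among 18377 genes tested. The data compared TF-1, a human acute myeloid leukaemia line of erythroid character, after transfection with a control vector (pEGFP, 3 arrays, numbered 1 to 3) or with human PRL-3, the tyrosine phosphatase encoded by PTP4A3 (3 arrays, numbered 4 to 6). Both lines were kept in RPMI medium that held 10% fetal bovine serum and 5 ng/ml of human interleukin-3, a cytokine known to induce FOS and JUN. The labels do not say whether each line was a clone or a pool, nor that arrays with 1 label were separate cultures, so the spread behind each p-value may be technical.

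AP-1 is a dimer of basic leucine zipper proteins that binds a short palindromic DNA element, the TPA response element (TRE). JUN proteins pair with each other or with FOS, ATF and BATF proteins, whereas FOS proteins need a partner from another branch of the family. Growth factors and cytokines raise FOS through ERK and the serum response factor, and stress raises JUN through the JNK kinases, which also phosphorylate the JUN protein and so raise its activity. JUN binds its own promoter and drives its own transcription. In blood cells AP-1 takes part in monocytic differentiation, survival and the response to cytokines. The arrays read mRNA and not the protein or its phosphorylation.

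The promoters are shown first because AP-1 acts through short elements of this kind, among them some in the promoter of JUN, the member that changed. Of the 10 members 8 had a window in the RefSeq promoter table (GRCh38.p14), running from 250 bases before to 50 bases after the annotated start, and ATF3 had 2. Both strands were searched for TGACTCA (the TRE, found in 4.95% of all 35116 windows of that length), TGACATCA (2.61%), TGACGTCA (the cyclic AMP response element, CRE, 1.85%), TGACGTTT (0.487%) and TTACCTCA (0.715%). TGACATCA and TTACCTCA are the proximal and distal AP-1 elements described for the JUN promoter, and TGACGTTT is the CRE-like element described for FOS. None of these motifs contains another. A match is a description of letters and not evidence of binding. Capitals mark the matches, and all stretches run 5′ to 3′ on the strand of the gene and end before the start site.
JUN (chr1:58784048-58784247, minus strand): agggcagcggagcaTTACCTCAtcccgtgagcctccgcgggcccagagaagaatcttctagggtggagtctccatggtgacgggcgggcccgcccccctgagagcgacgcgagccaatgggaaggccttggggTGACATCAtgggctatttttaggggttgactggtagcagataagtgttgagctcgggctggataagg
ATF3 (chr1:212565247-212565326, plus strand): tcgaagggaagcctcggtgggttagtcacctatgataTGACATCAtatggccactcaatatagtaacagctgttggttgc
JUND (chr19:18281773-18281852, minus strand): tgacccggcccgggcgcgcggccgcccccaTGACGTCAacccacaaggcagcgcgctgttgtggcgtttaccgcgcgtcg
FOS (chr14:75278728-75278807, plus strand): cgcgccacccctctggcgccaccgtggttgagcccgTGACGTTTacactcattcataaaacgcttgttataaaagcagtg
The JUN stretch held both of the motifs taken from it, TTACCTCA at 186 to 179 and TGACATCA at 67 to 60 bases before the start. ATF3 shared TGACATCA, at 123 to 116 bases before the first of its starts. JUND held TGACGTCA at 200 to 193 bases before the start, and FOS held TGACGTTT at 64 to 57. FOSL2 had TGACTCA at 5 to 11 bases after its start. In the windows of JUNB, FOSB and BATF, and at the second start of ATF3, these letters were not present.

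**Figure D1:**
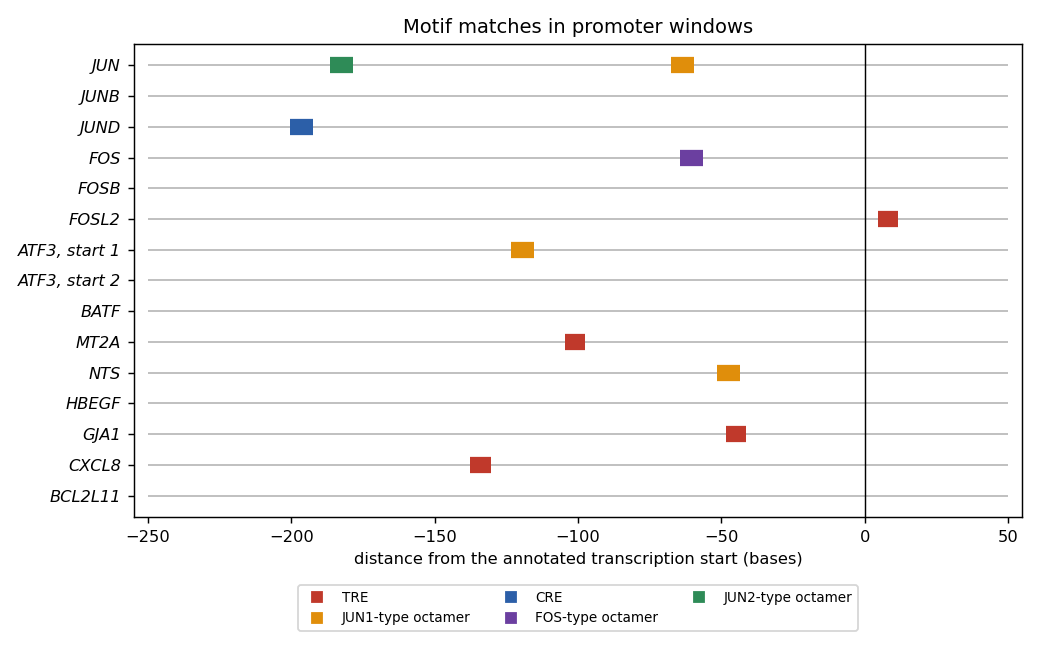
Positions of 5 motifs (coloured blocks) along each promoter window, in bases from the annotated transcription start, for 8 AP-1 members and for those AP-1 target genes that passed the test and have a window; in the key, the JUN1-type octamer is TGACATCA, the JUN2-type TTACCTCA and the FOS-type TGACGTTT. Both matches in the JUN window are motifs taken from that promoter; outside JUN, TGACATCA also lies in the windows of ATF3 and NTS.

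The 6 arrays had median intensities of 89.8 to 92.9, and log2 values correlated at 0.986 to 0.996 within groups and 0.977 to 0.986 between groups, across genes, which are not independent replicates. Control 1 and PRL-3 5 lay towards one end of the second principal component (31.4% of the variance), and control 3 lay at the other. Of 10 markers of TF-1 cells 9 were analysed, with brightness in control arrays between the 45.6 and 97.1 percentile of the genes tested, with a median difference of -0.081. Of the 9, 3 differences were positive and 6 negative. KIT (1.01, adjusted p = 0.000721, limma) and CSF2RA (0.27, adjusted p = 0.0407, limma) were higher with PRL-3, and the other 7 did not pass. Among those 7 were IL3RA (0.49, adjusted p = 0.162, limma) and CSF2RB (-0.57, adjusted p = 0.104, limma). CD34 (-0.44, adjusted p = 0.0882, limma, all PRL-3 arrays lower) and TAL1 (-0.28, adjusted p = 0.187, limma) did not pass either. The 7 lymphocyte markers lay at the 6.83 to 38.4 percentile and the 8 fibroblast, epithelial and endothelial markers at the 3.25 to 60.9 percentile, and 0 of these 15 passed the test. PTP4A3 itself rose by 2.87 ± 0.072 (log2, SE, n = 3 each; adjusted p = 2.24e-06, limma).

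JUN, the strongest transcriptional activator among the JUN proteins, was the single member of the family that passed the test. Its log2 intensity was 6.77, 6.71 and 6.58 in control 1 to 3 and 7.49, 7.58 and 7.74 in PRL-3 4 to 6. Every PRL-3 array lay above every control array, by a gap several times the spread within either group. The means were 6.69 ± 0.099 and 7.60 ± 0.12 (SD, n = 3 each), a difference of 0.92 ± 0.088 (log2, SE) with a 95% interval of 0.72 to 1.12, or 1.89-fold, with adjusted p = 0.00104 in limma. Permuting the 6 arrays exactly (two-sided) gave p = 0.1, which is the lowest value possible with 3 arrays a group. The call held whichever array was left out, at 0.85 to 0.97 with adjusted p of 0.00252 to 0.0118 (limma). With control 1 and PRL-3 5 both left out it held too. In these cultures a change in the share of cells that express JUN and a change in JUN mRNA per cell cannot be told apart.

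Over all genes tested, 4.58% were higher and 3.11% lower with PRL-3 at adjusted p 0.05 (limma), or 842 and 571 genes. In either direction the share was 7.69%. Among the 10 members there was 1 rise and 0 falls, with 9 that missed the threshold, and 4 had an unadjusted p under 0.05, against 20.2% of all genes. The median difference of the members was 0.029 on the log2 scale and that of all genes -0.015. The groups did not overlap in 5 of the 10 members, 3 higher and 2 lower, against 24.3% of all genes in either direction.

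**Figure D2:**
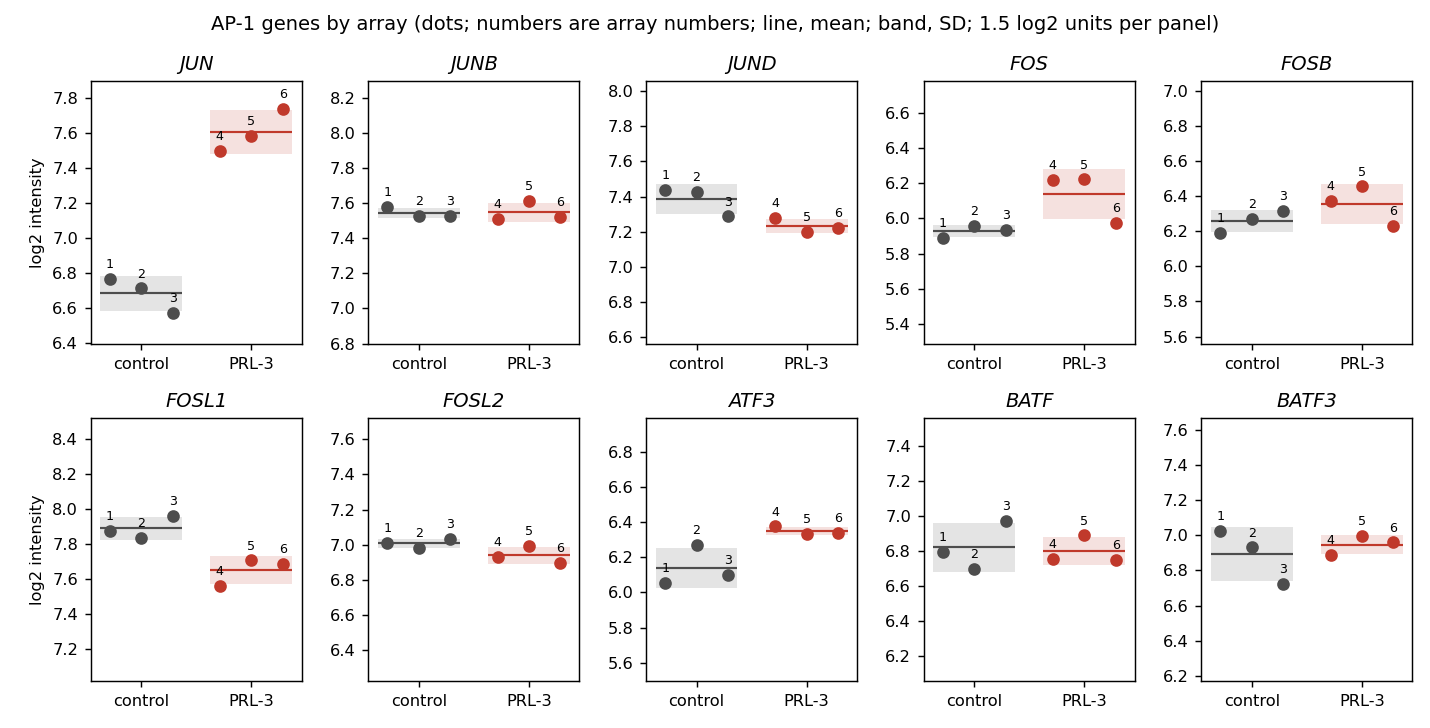
Log2 intensity of the 10 AP-1 genes in each array (dots with array numbers), with the group mean (line) and SD (band); each panel spans the same range of log2 units. JUN rises from 6.69 to 7.60, while the groups of the other genes lie within 0.24 of each other.

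The other JUN genes did not pass the test. JUNB, which is induced early like JUN but activates fewer promoters, read 7.58, 7.53 and 7.53 in control and 7.51, 7.61 and 7.52 in PRL-3 arrays. The groups overlapped, and the difference of 0.0044 had a 95% interval of -0.15 to 0.16. JUND, the member usually expressed at a steady level and linked to slower growth, read 7.44, 7.43 and 7.29 in control and 7.28, 7.20 and 7.22 in PRL-3 arrays. All PRL-3 arrays lay below all control arrays, although control 3 and PRL-3 4 nearly met. The difference was -0.15 (95% interval -0.32 to 0.013; adjusted p = 0.291, limma), and JUND passed with array weights alone (adjusted p = 0.0437, limma).

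Among the FOS genes, FOS, the classical early partner of JUN, read 5.89, 5.96 and 5.93 in control and 6.22, 6.22 and 5.98 in PRL-3 arrays. The groups did not overlap, but PRL-3 6 lay next to the controls, and this was the array in which JUN was highest. The difference was 0.21 (95% interval 0.018 to 0.41; adjusted p = 0.203, limma), and without PRL-3 6 it was 0.29 (adjusted p = 0.108, limma). The control level of FOS was dim, at the 24.8 percentile of the genes tested. With no detection call in the table, how far such a dim probe set stood above background is not known. FOSB, another early FOS gene, read 6.19, 6.27 and 6.32 in control and 6.37, 6.46 and 6.23 in PRL-3 arrays. PRL-3 6 was again the lowest of its group and the groups overlapped, with a difference of 0.095 (95% interval -0.089 to 0.28). FOSB too was dim in control arrays, at the 33.7 percentile.

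FOSL1 and FOSL2 encode the FOS-related antigens FRA1 and FRA2, which lack the strong activation domain of FOS and are usually induced later. FOSL1 read 7.87, 7.83 and 7.96 in control and 7.56, 7.71 and 7.68 in PRL-3 arrays, so that all PRL-3 arrays were lower. Its difference of -0.24 (95% interval -0.41 to -0.069) was the lowest in the family and did not pass (adjusted p = 0.101, limma). It passed with array weights alone (-0.22, adjusted p = 0.022, limma). FOSL2 read 7.01, 6.98 and 7.03 in control and 6.93, 6.99 and 6.90 in PRL-3 arrays. Only PRL-3 5 reached into the control range, and the difference was -0.068 (95% interval -0.22 to 0.081).

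ATF3, a stress-induced partner of JUN that can repress transcription, read 6.05, 6.27 and 6.10 in control and 6.38, 6.33 and 6.34 in PRL-3 arrays. The PRL-3 arrays were tightly grouped above the controls, and control 2 came closest to them. ATF3 was dim in control arrays, at the 30.2 percentile of the genes tested, and how far it stood above background is not known. The difference was 0.21 (95% interval 0.033 to 0.39; adjusted p = 0.166, limma); without control 2 it was 0.27 (adjusted p = 0.131, limma). BATF and BATF3, small partners of JUN best known from T cells and dendritic cells, showed overlapping groups. BATF ranged from 6.70 to 6.97 in control and from 6.75 to 6.89 in PRL-3 arrays (difference -0.021, 95% interval -0.22 to 0.18). BATF3 ranged from 6.73 to 7.02 in control and from 6.89 to 6.995 in PRL-3 arrays (difference 0.054, 95% interval -0.15 to 0.26).

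**Figure D3:**
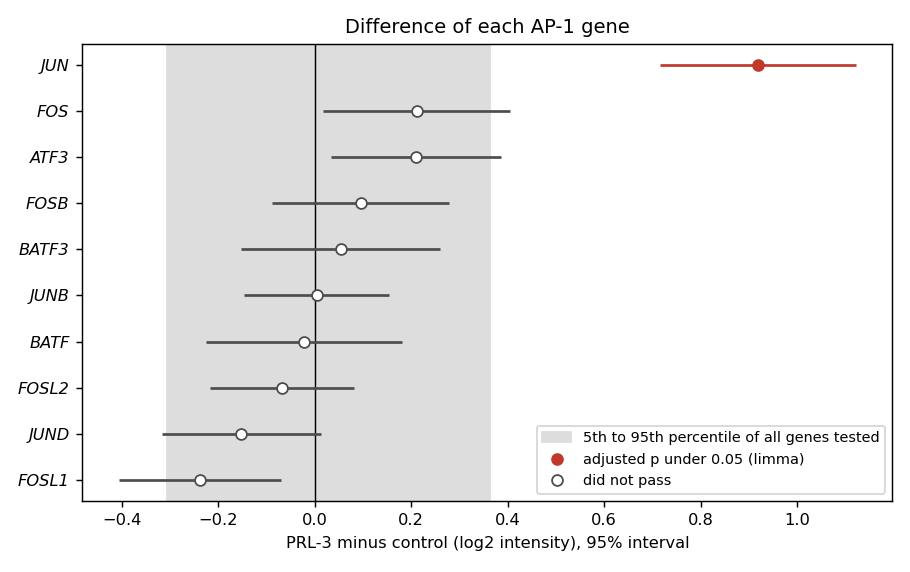
Difference of each AP-1 gene between PRL-3 and control arrays (log2 intensity, dots) with its 95% interval (lines), beside the 5th to 95th percentile of all genes tested (grey). JUN, at 0.92, lies outside the grey band, and the other 9 genes lie inside it.

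The genes whose log2 values followed JUN most closely over the 6 arrays were GCH1 (Pearson r = 0.999), the interferon-induced IFIT1 (0.997) and OGFRL1 (0.997). GCH1 makes the first step of tetrahydrobiopterin synthesis. The ranking covered the 1835 genes whose SD over the arrays was at least that of JUN divided by 2, with no upper limit. These r values are a description, since all arrays share the difference between groups. The 3 genes rose by 0.59, 0.80 and 0.96 on the log2 scale. GCH1 was dim in control arrays, at the 12.7 percentile of the genes tested, and how far it stood above background is not known.

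Among 8 measured relatives of the ATF, JDP and BATF branches, 1 rose, 1 fell and 6 did not pass, with a median difference of 0.019. Of all genes tested 4.58% were higher and 3.11% lower, and so short a list cannot be told from those shares. DDIT3, the stress factor CHOP, rose by 0.42 ± 0.088 (log2, SE; adjusted p = 0.0271, limma), and lost its call without control 2 (0.110), PRL-3 4 (0.110) or PRL-3 6 (0.0629). ATF5 read 7.74, 7.76 and 7.67 in control and 7.07, 7.19 and 7.27 in PRL-3 arrays, and fell by 0.55 on the log2 scale (adjusted p = 0.00462, limma). Of the MAF, NFE2-related and BACH factors, which share the zipper fold and bind longer elements, 0 of 11 passed in limma. An unadjusted p under 0.05 was seen in 2, and the median was -0.011. The shares of all genes were 7.69% passed in either direction and 20.2% with an unadjusted p under 0.05 (limma), near these counts.

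The JNK and p38 cascade is the route from stress to the JUN protein. Of its 23 measured genes, 6 rose, 1 fell and 16 did not pass, with a median of 0.066. Over all genes 4.58% were higher and 3.11% lower. The list was chosen with earlier results of these data known, so its count is not independent evidence. It covers kinase and phosphatase genes together, so the count gives no direction for the route. MAPK14 and MAP2K7 were not measured. Among the genes that passed, the largest rises were those of the MAP kinase phosphatase gene DUSP16 (0.47, adjusted p = 0.00775), GADD45A, which activates an upstream kinase of the cascade (0.46, adjusted p = 0.00779), the phosphatase gene DUSP1 (0.44, adjusted p = 0.0496) and the kinase gene MAP3K1 (0.33, adjusted p = 0.0404; all limma). The phosphatase gene DUSP10 had a larger difference, 0.51, with all PRL-3 arrays higher, but did not pass (adjusted p = 0.0915, limma). MAPK9, which encodes the kinase JNK2, and MAP3K7 also rose, by 0.31 and 0.29, and MAP3K5 fell by 0.29 on the log2 scale; these 4 genes were named after their values were seen. With fewer arrays fewer of these genes passed: 1 was higher without control 2, and 2 in each of the other fits that left out 1 array. DUSP16 kept its call in each of these fits and GADD45A lost it without control 2 (adjusted p = 0.05002, limma). DUSP1, MAP3K1, MAPK9 and MAP3K7 did not pass in any fit that left out 1 array, with adjusted p up to 0.185 (DUSP1 without control 2), while their differences stayed at 0.31 to 0.51, 0.26 to 0.36, 0.26 to 0.35 and 0.27 to 0.31, and MAP3K5 kept it only without control 3. Of the ERK kinases, SRF, its cofactors and the CREB factors, the route from cytokines to FOS, 0 of 15 passed in limma. An unadjusted p under 0.05 was seen in 3, and the median was -0.052. Among all genes 7.69% passed in either direction and 20.2% had an unadjusted p under 0.05 (limma). The counts of this short list lie near those shares and are no result about the route.

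Among 14 genes that control turnover of JUN and FOS, 1 rose, 1 fell and 12 did not pass, with a median of 0.068. With 4.58% of all genes higher and 3.11% lower, these counts are no result about turnover genes as a list. TRIB1, a scaffold that brings the ubiquitin ligase COP1 to its substrates, read 6.83, 6.80 and 6.64 in control and 7.43, 7.55 and 7.43 in PRL-3 arrays. Its groups were far apart and it rose by 0.72 ± 0.077 (log2, SE; adjusted p = 0.0017, limma). DET1, which joins COP1 in a ligase that targets JUN, fell by 0.36 on the log2 scale (adjusted p = 0.0457, limma), and kept that call only without control 3 among the fits that left out 1 array. COP1 (0.054) and FBXW7 (0.22), a ligase subunit that recognises phosphorylated JUN, did not pass. Nor did TRIB2, a relative of TRIB1, although its difference of -0.58 was the lowest in the list and all its PRL-3 arrays were lower (adjusted p = 0.079, limma).

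Of the genes commonly given as AP-1 targets, 8 of 30 measured rose, 0 fell and 22 did not pass, with a median of 0.099; over all genes 4.58% were higher and 3.11% lower. The list includes MT2A and NTS, whose rise was known when it was drawn up, so its count is not independent evidence of a direction. Both carry elements near their starts, as does GJA1, which is why these are shown.
MT2A (chr16:56608444-56608523, plus strand): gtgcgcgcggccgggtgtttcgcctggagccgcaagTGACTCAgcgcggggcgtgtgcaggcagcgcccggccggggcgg
NTS (chr12:85874195-85874274, plus strand): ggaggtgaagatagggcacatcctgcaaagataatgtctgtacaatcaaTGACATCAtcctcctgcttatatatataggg
GJA1 (chr6:121435546-121435625, plus strand): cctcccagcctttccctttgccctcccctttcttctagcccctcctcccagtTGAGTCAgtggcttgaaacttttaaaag
MT2A, a metallothionein in whose promoter AP-1 binding was first studied and which also responds to metals, held TGACTCA at 104 to 98 bases before the start. NTS, the precursor of neurotensin, held TGACATCA, the octamer of the JUN promoter, at 51 to 44. GJA1, the gap junction gene of connexin 43, held the TRE on its other strand, read here as TGAGTCA, at 48 to 42. CXCL8, the interleukin-8 gene, held TGACTCA at 137 to 131. In the windows of HBEGF and BCL2L11 these motifs were not present, and ITGAX and VEGFA were not matched. Positions were drawn up only for the listed targets that passed, so the matches shown belong to genes picked by their rise. They are not set against those of unchanged targets, and a link between motif and rise was not tested.

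MT2A read 9.87, 9.83 and 9.77 in control and 12.22, 12.21 and 12.15 in PRL-3 arrays, a rise of 2.37 (log2, adjusted p = 2.71e-06, limma). These values are those of its brightest probe set. With the probe sets of the gene averaged, the rise was smaller, 1.99 (adjusted p = 4.04e-05, limma). NTS read 5.99, 6.29 and 6.29 in control and 8.44, 7.94 and 8.10 in PRL-3 arrays, a rise of 1.97 (adjusted p = 0.000294, limma). HBEGF, a growth factor of the EGF family, read 6.03, 6.21 and 6.42 in control and 7.13, 7.13 and 6.78 in PRL-3 arrays, a rise of 0.79 (adjusted p = 0.00921, limma). In all of these the groups were separate, with PRL-3 6 the lowest of its group for HBEGF as for FOS. NTS and HBEGF were dim in control arrays, at the 31.7 and 32.6 percentile of the genes tested. How far their control levels stood above background is not known. GJA1 read 7.76, 7.90 and 7.64 in control and 8.37, 8.34 and 8.35 in PRL-3 arrays, a rise of 0.59 (adjusted p = 0.00454, limma). CXCL8, VEGFA, the integrin gene ITGAX and the pro-death gene BCL2L11 rose by 0.51, 0.51, 0.41 and 0.33; they were named after their values were seen. The matrix proteases often used as AP-1 readouts did not pass, with MMP1 at -0.054, MMP3 at 0.00075, MMP10 at 0.048 and MMP9 at 0.21, all at the 18.8 percentile of genes or below in control arrays. MT2A, NTS and GJA1 kept their calls whichever array was left out. The count of 8 fell to 3 without control 2 or without PRL-3 4, to 5 without PRL-3 5 and to 6 when control 1, control 3 or PRL-3 6 was left out. HBEGF lost its call without control 2 (adjusted p = 0.0544, limma) and without PRL-3 4 (0.0502), as did ITGAX (0.0603 and 0.0561). CXCL8 lost it without control 1 (0.071), control 2 (0.089), PRL-3 4 (0.0824) or PRL-3 5 (0.0507). VEGFA lost it in each such fit but that without control 1, with adjusted p up to 0.142 (without control 2), and BCL2L11 in each of them, with adjusted p of 0.0574 to 0.185.

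**Figure D4:**
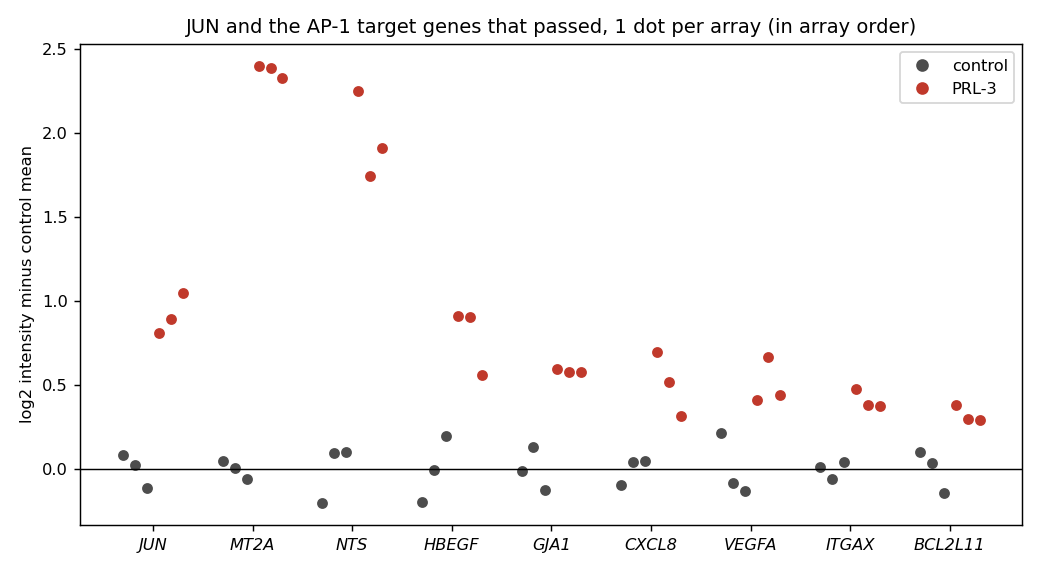
Log2 intensity minus the mean of the control arrays for JUN and the 8 AP-1 target genes that passed, 1 dot per array in array order. In each gene the 3 PRL-3 dots lie above the 3 control dots, from a rise of 2.37 in MT2A to 0.33 in BCL2L11.

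The other rapid response genes are induced within minutes to hours of a stimulus, as FOS and JUN are. Of 20 measured, 4 rose, 0 fell and 16 did not pass, with a median of 0.074. Over all genes 4.58% were higher and 3.11% lower. This list too was chosen with earlier results of these data known, so its count is not independent evidence. CCN1, a matrix protein gene, rose by 0.72 (adjusted p = 0.00153), the kinase gene SGK1 by 0.69 (adjusted p = 0.00572), the nuclear receptor gene NR4A2 by 0.60 (adjusted p = 0.00623) and the stress cytokine gene GDF15 by 0.55 (adjusted p = 0.0272; all limma). GDF15 kept its call only without control 1 among the fits that left out 1 array, with adjusted p up to 0.123 (without control 2). SGK1 and NR4A2 were as dim as FOS in control arrays, at the 24.1 and 24.3 percentile of the genes tested. How far they stood above background is not known. EGR1, the usual companion of FOS in a serum or cytokine response, read 7.66, 7.56 and 7.70 in control and 7.58, 7.62 and 7.65 in PRL-3 arrays. Its groups overlapped and it differed by -0.020 (adjusted p = 0.925, limma).

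**Figure D5:**
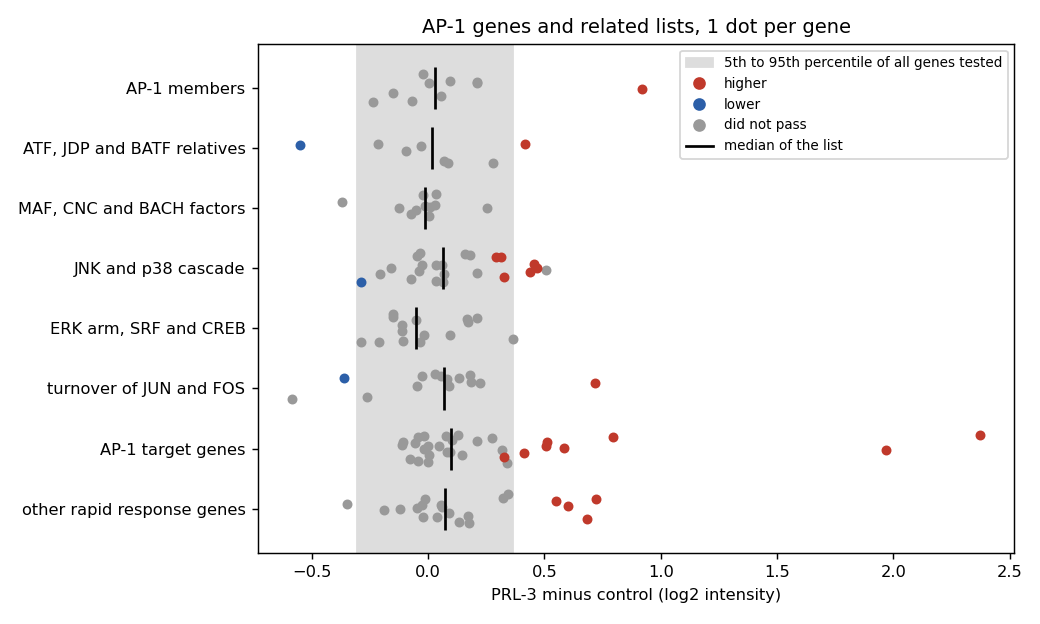
Difference between PRL-3 and control arrays (log2 intensity) for each gene (dots) of the AP-1 family and 7 related lists, with the list median (bar) and the 5th to 95th percentile of all genes tested (grey). The medians lie between -0.052 and 0.099, and the genes that passed lie mostly on the right, in the AP-1 target, JNK and p38 and rapid response lists.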

How the data were processed

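RNA was isolated on Qiagen columns, and 100 ng was turned into biotinylated cDNA with reagents from Nugen, per the labels' protocols. The deposited table held a linear intensity for each of 28869 probe sets on every array. How the authors summarised and normalized them is not given in the sources used here, and any normalization between arrays would hide a shift common to most genes. Deposited intensities were put on the log2 scale without an offset. Probe sets with exactly 1 symbol in the platform annotation (19310, of which 19279 matched RefSeq, GRCh38.p14, by Entrez identifier) were kept, the brightest for each gene, which gave 18377 genes. No gene was left out as dim.

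The 2 groups were tested in limma (version 3.58.1, under R 4.3.3; lmFit, eBayes, two-sided, Benjamini-Hochberg over all genes, threshold 0.05), tested first on simulated data. Errors of differences are moderated standard errors, and intervals are at 95%, not adjusted for the number of genes. Precision is limited by having 3 arrays a group. The members, the lists and the rules were chosen with earlier results of these data known. The text names all members, PTP4A3, up to 4 passing genes with the largest differences in each list, and the 3 genes most correlated with JUN among those with at least its SD divided by 2. Other genes that the text names were chosen after their values were seen. Alternatives were quantile normalization, a median shift, robust variances with a trend, weights for arrays, 2 filters on brightness, averaged probe sets, every probe set tested, a minimum of 1.2-fold, and leaving out arrays. List genes with no probe set of their own name were not analysed here.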

Additional observations from a re-analysis of the deposited data

How the results depend on the processing

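JUN kept its rise and its call in 16 of 16 alternatives, at 0.85 to 0.97 with adjusted p of 4.52e-05 to 0.0118 (limma), and 1 member was higher in each of them. Array weights, which are tuned on the spread of these same arrays, were the one alternative in which members were called lower: 2, JUND (-0.17) and FOSL1 (-0.22). They gave 2122 genes higher and 2303 lower. With a minimum of 1.2-fold the counts were 189 and 72. Leaving out 1 array gave 388 to 792 genes higher and 178 to 747 lower, with fewer samples. The sign of the members nearest to 0 was not fixed. JUNB turned to -0.0062 with array weights and to -0.011 without control 1 and PRL-3 5, and ranged from -0.027 to 0.023 with 1 array left out (-0.0036 without control 2, -0.0042 without control 3). BATF turned to 0.044 with array weights and ranged from -0.082 to 0.053 (0.0025 without PRL-3 6). BATF3 turned to -0.0018 with array weights and ranged from -0.030 to 0.12. FOS, FOSB and ATF3 were too dim for 1 of the filters. FOS, FOSB, FOSL2 and ATF3 passed in no alternative. The count of JNK and p38 genes higher was 6 and ran from 0 (minimum of 1.2-fold) to 10 (array weights). That of AP-1 targets was 8 and ran from 2 to 10. That of other rapid response genes was 4 and ran from 0 (genes above the median level) to 6. CCN1, SGK1, NR4A2 and GDF15 were too dim for the filter at the median level and were not tested under it, which gave this 0. The median shift moved the median of all genes from -0.015 to -0.0034. No paired analysis was possible because the 2 groups share no replicate numbers. No detection call was given, so how far dim genes such as FOS stood above background limits what can be read from them.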

Other observations

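Across all genes tested with a promoter window, the share that rose with PRL-3 was set beside the motifs shown above. Of 749 genes with TGACTCA in the window, 5.47% were higher and 3.07% lower at adjusted p 0.05 (limma); of 13459 genes without it, 4.73% and 3.12%. For TGACATCA, the octamer of the JUN, ATF3 and NTS promoters, the shares were 4.31% higher and 2.03% lower among 394 genes with it, and 4.78% and 3.15% among 13814 without. For TGACGTCA they were 7.01% higher and 2.04% lower among 442 genes with it, and 4.69% and 3.15% among 13766 without. These shares are a description and no test of them was made.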
